A study of Mus musculus with 8 samples.

Results

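The VEGF ligands Vegfa, Vegfb and Vegfc and 6 endothelial receptor genes, Kdr, Flt1, Tek, Tie1, Pecam1 and Eng, were followed in mouse palate cells with and without ephrin-B1. Every probe whose platform symbol was one of these 9 genes was taken, which gave 9 of 17711 genes and 14 of 46632 probes. The genes were chosen by their signals, detection p and induced-against-uninduced differences on these arrays, so that contrast is a description for them and its counts of calls support nothing.

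The cells were MEP cells, primary cells from the palatal shelves of E13.5 mouse embryos of the strain labelled CBA;C57BL6 N2, in DMEM with serum at passage 1. The induced group (4 arrays) received pre-clustered ephrin-B1-Fc, a soluble ligand of Eph receptors, at 2 ug/ml for 60 min. The uninduced group (4 arrays) had a control induction with no agent named. Replicates 1 and 2 of both groups were on slides 1 and 2, and replicates 3 and 4 of both on slide 3. Whether a replicate was a culture of its own is not in the labels, so p-values measure the spread between these arrays, whose number limits the precision. The cultures are mixed populations, in which fewer cells of a type and less RNA per cell cannot be told apart.

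VEGF ligands are secreted dimers that bind receptor tyrosine kinases on endothelial cells, the lining of blood vessels. Kdr (VEGF receptor 2) carries most of the growth signal, while Flt1 (VEGF receptor 1) binds VEGF-A and VEGF-B tightly and also exists as a soluble decoy. Tek (Tie2) is the angiopoietin receptor, Tie1 its partner, Pecam1 a junctional adhesion molecule and Eng (endoglin) a co-receptor for TGF-beta and BMP ligands. In the embryonic palate, mesenchymal cells surround the vessels and are a known source of VEGF.

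The 3 ligands, Flt1, Eng and Kdr gave signal above background on all 8 arrays, whereas Tek, Tie1 and Pecam1 did so on none. A probe counted as above background at a detection p under 0.05, set against the negative control beads of its own array. By this rule 6 of the 14 probes were detected on all 8 arrays and the other 8 on 0. At a detection p under 0.01 the Kdr probe was detected on 6 of 8 arrays and the other 5 probes on all 8. These 6 probes were the members that passed the filter of detection on at least 4 arrays and entered the fits. Of all 46632 probes 16514 passed this filter, and 32.8% to 37.2% of probes were detected per array.

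Deposited bead intensities, which carry no normalization between arrays, showed a gap between the detected and undetected probes. Tie1 lay between 56.4 and 62.8, with a lowest detection p of 0.679. The Tek probe ran from 56.4 to 82.8, with a lowest detection p of 0.0842 on induced replicate 2. The 3 Pecam1 probes ranged from 55.5 to 84.9 and the lowest detection p among them was 0.0873, on induced replicate 3. Just inside the threshold was Kdr ILMN_1257223, at 104.2 to 173.2 with detection p from 0.00125 to 0.02.

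**Figure D1:**
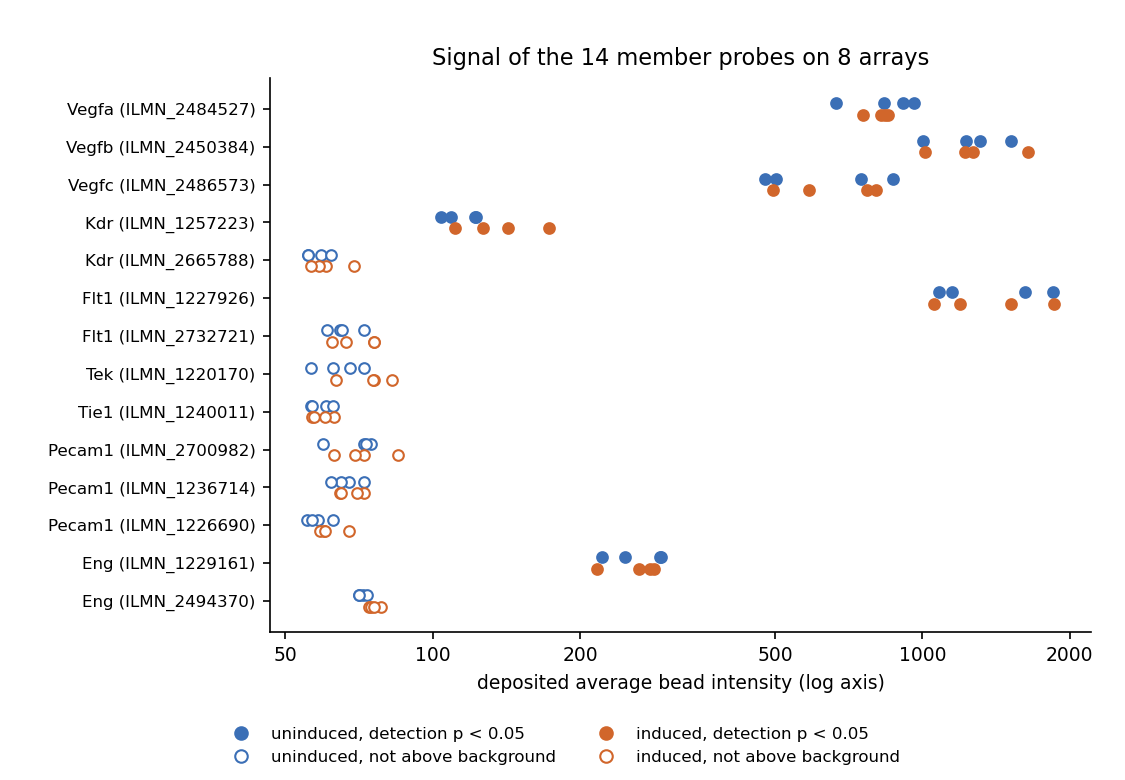
Deposited average bead intensity (log axis) of the 14 probes of the VEGF ligand and receptor genes on 8 arrays, blue for uninduced and orange for induced, filled where the detection p was under 0.05. Tek, Tie1 and all Pecam1 probes have unfilled points and lie below 85 on every array, and Kdr, Flt1 and Eng each have a probe with filled and a probe with unfilled points.

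Kdr, Flt1 and Eng each had probes that did not agree on detection. The Flt1 probe ILMN_1227926 read 1057 to 1856, while Flt1 ILMN_2732721 read 60.8 to 75.9 and was not above background on any array. Eng ILMN_1229161 read 216 to 292, and Eng ILMN_2494370 70.6 to 78.5, not above background on any array. Kdr ILMN_2665788, which is annotated to the RefSeq transcript, read 55.7 to 69.1 and was not above background on any array. The detected Kdr probe is annotated to a cDNA clone. Where these probes lie on their transcripts is not given in the sources used here, so Kdr in particular rests on a single dim probe.

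Most other endothelial markers were at background too. Of 22 further endothelial markers with a probe, 14 were not above background on any array, among them Cdh5 (VE-cadherin), the transcription factor Erg, Vwf (von Willebrand factor), Sox17, Sox18, Plvap and Icam2. The brightest probes of 2, Egfl7 and Cd34, were detected on all 8 arrays, at 374 to 513 and 364 to 541. Emcn (endomucin) and Esam were detected on 5 arrays each. These 4 of the 22 had a kept probe, beside 9396 of all 17711 genes. The summed normalized intensity of the 4 endothelial markers kept was 719 to 843 in uninduced and 688 to 807 in induced cells, so the groups overlapped.

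Markers of palatal mesenchyme were present throughout. All 8, including the palate factors Osr2, Shox2 and Msx1, were detected on all 8 arrays. Of 11 markers of mural cells, which wrap vessels, 6 were detected on all 8, including Pdgfrb, Cspg4 and Acta2, while Kcnj8, Abcc9 and Des were detected on none. Macrophage markers were present, with 5 of 12 detected on all 8 arrays, and of 7 epithelial markers with a probe 2, Krt8 and Krt18, were detected on all 8, Krt14 on 6, and Epcam and Krt5 on 0.

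**Figure D2:**
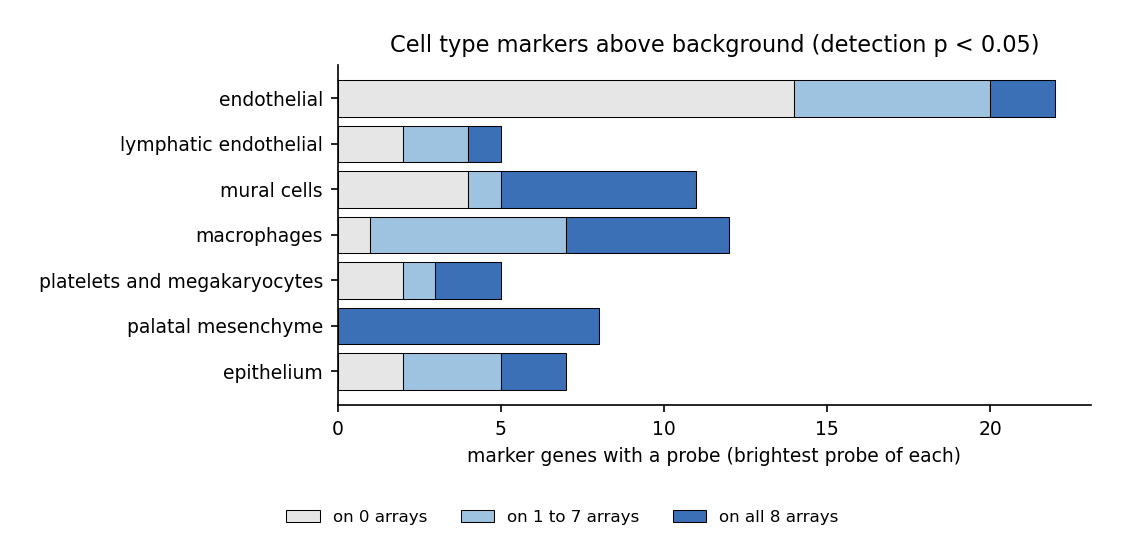
Number of marker genes per cell type whose brightest probe was above background on 0, on 1 to 7 or on all 8 arrays, one bar per list. All 8 palatal mesenchyme markers were detected on every array, against 2 of 22 endothelial markers.

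Promoter windows of the receptor genes are shown because some of these genes gave signal in the cultures and others did not. Flt1 and Kdr had a detected probe, and Tek and Tie1 had none. RefSeq windows of the build GRCm38.p6 run from 250 bases before to 50 after an annotated start, and 8 of the 9 members have at least 1. Each is written 5′ to 3′ on the strand of the gene, which is the plus strand for Tek and the minus strand for the other three. Capitals mark the ETS core, read as GGAA or, on the other strand, as TTCC. They also mark the GC box, read as GGGCGG or, on the other strand, as CCGCCC. In these windows 0 ETS cores overlapped a GC box. ETS proteins, such as Erg, bind the first in many endothelial promoters, and Sp1 binds the second. The windows lie at chr5:147725962-147726261, chr5:75978406-75978705, chr4:94739039-94739338 and chr4:118489800-118490099.
Flt1: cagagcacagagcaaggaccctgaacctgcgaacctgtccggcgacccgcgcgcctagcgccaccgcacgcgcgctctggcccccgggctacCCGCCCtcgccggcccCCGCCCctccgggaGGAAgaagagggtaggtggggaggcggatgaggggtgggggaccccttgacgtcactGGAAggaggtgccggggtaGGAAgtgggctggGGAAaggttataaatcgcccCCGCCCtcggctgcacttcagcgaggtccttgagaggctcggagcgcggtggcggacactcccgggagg
Kdr: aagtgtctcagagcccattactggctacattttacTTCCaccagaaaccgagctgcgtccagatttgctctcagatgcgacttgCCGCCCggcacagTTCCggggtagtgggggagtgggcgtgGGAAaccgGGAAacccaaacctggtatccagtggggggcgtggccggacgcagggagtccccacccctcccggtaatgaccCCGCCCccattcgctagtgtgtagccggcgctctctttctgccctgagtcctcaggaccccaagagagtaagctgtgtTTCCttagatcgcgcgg
Tek: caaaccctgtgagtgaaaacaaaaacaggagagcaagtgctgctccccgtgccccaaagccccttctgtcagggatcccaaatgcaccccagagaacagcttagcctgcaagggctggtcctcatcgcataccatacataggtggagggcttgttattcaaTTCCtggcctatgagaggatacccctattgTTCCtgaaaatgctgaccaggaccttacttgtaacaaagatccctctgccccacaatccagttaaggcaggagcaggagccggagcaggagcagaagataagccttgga
Tie1: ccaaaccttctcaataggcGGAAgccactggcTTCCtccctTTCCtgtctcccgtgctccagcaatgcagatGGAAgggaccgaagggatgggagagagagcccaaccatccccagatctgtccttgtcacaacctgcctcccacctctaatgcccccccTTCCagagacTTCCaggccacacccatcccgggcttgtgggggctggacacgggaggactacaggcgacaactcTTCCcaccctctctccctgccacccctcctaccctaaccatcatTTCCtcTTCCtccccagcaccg

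Flt1 held 4 ETS cores and 3 GC boxes, and Kdr 5 and 2. Tek held 2 ETS cores and Tie1 9, and neither held a GC box. The window of Eng, which had a detected probe, held 4 ETS cores and 0 GC boxes. The windows at the main starts of Vegfa, Vegfb and Vegfc held 2, 4 and 2 GC boxes. Of 32851 such windows, 96% held an ETS core and 35.7% a GC box. The hypoxia response core, read as ACGTG or, on the other strand, as CACGT, was in none of the windows described so far, against 19.6% of all windows. It was in a second Vegfa window, which lies inside the gene. A match describes letters, not a bound site, and a relation of these motifs to detection was not tested.

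The question put to the groups was whether transcripts change within 60 min of ephrin-B1 treatment. For the VEGF ligands the difference of means was smaller than the SD of each group. Values below are normalized log2 intensities, after background correction and quantile normalization, in the order of replicates 1 to 4. Differences are induced minus uninduced, with the SE of the fit without a block, and a level is not compared between probes. That SE includes the spread between replicate numbers. With the replicate number as a block, which pairs the arrays, the SE was 0.076 for Vegfa, 0.062 for Vegfb and 0.063 for Vegfc. It was 0.12 for Kdr, 0.059 for Flt1 and 0.08 for Eng.

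Vegfa (chr17:46016993-46032377, GRCm38.p6), the main vessel growth factor, read 9.87, 9.63, 9.47 and 9.59 in uninduced cells. Induced cells read 9.56, 9.88, 9.37 and 9.49. The values of the groups overlapped throughout. The mean was 9.64 ± 0.17 (SD, n = 4 per group) without and 9.57 ± 0.22 with the treatment, a log2 difference of -0.07 (SE 0.13). Pair differences were -0.31, 0.25, -0.10 and -0.10, so Vegfa was lower in 3 of 4 pairs and higher in pair 2.

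Vegfb (chr19:6982472-6987651), a ligand of Flt1 linked to fatty acid handling, read 10.32, 10.25, 10.39 and 10.04 in uninduced cells. Induced cells read 10.35, 10.42, 10.38 and 9.82. Replicate 4 was the lowest array of both groups. The mean was 10.25 ± 0.15 against 10.24 ± 0.28 (SD, n = 4 each), a difference of -0.0083 (SE 0.14, higher in 2 of 4 pairs).

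Vegfc (chr8:54077532-54186454), the growth factor of lymphatic vessels, read 8.85, 9.12, 9.30 and 9.51 in uninduced cells. Induced cells read 8.88, 9.32, 9.25 and 9.46. Replicate 1 was lowest and replicate 4 highest in both groups. The mean was 9.20 ± 0.28 against 9.23 ± 0.25 (SD, n = 4 each), a difference of 0.03 (SE 0.16, higher in 2 of 4 pairs).

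Among the receptors, Kdr had the largest difference of the 6 detected probes, and it was higher in all 4 pairs. Kdr (chr5:75932827-75979072) read 5.69, 6.16, 6.06 and 5.99 in uninduced cells. Induced cells read 5.90, 6.43, 6.28 and 6.79. The groups overlapped, since induced replicate 1 lay below 3 of the uninduced arrays. The mean was 5.98 ± 0.20 against 6.35 ± 0.37 (SD, n = 4 each), a difference of 0.37 (SE 0.19) or 1.3-fold. The 4 pairs gave 0.20, 0.27, 0.22 and 0.81, so the pair of replicate 4 stood above the other three. Over all alternatives the difference lay between 0.22 and 0.53, and without replicate 4 in the fit with a replicate block it was 0.23. On the deposited scale Kdr went from 104.2, 109.1, 122.2 and 122.5 to 110.9, 126.5, 142.8 and 173.2.

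Of the 6 detected member probes, only that of Kdr had the same sign in all 4 pairs. The Tek probe and Eng ILMN_2494370, both at background, were also higher in all 4. Of the 16514 tested probes, 7.87% were higher in all 4 and 7.49% were lower. Since the contrast was known when the genes were chosen, nothing is read from the count of member probes. The other Kdr probe gave pair differences from -0.04 to 0.15 at background level. The endothelial marker sums given above overlapped between the groups, and their part in the Kdr difference was not tested.

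Flt1 (chr5:147561604-147726438) read 10.63, 10.36, 9.96 and 10.67 in uninduced cells. Induced cells read 10.60, 10.38, 9.72 and 10.76. Replicate 3 was lowest and replicate 4 highest in both groups. The mean was 10.41 ± 0.33 against 10.37 ± 0.45 (SD, n = 4 each), a difference of -0.04 (SE 0.22, higher in 2 of 4 pairs).

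Eng (chr2:32646595-32682669) read 7.93, 7.81, 7.48 and 7.72 in uninduced cells. Induced cells read 7.96, 7.61, 7.49 and 7.70. Replicate 1 was highest and replicate 3 lowest in both groups. The mean was 7.74 ± 0.19 against 7.69 ± 0.20 (SD, n = 4 each), a difference of -0.05 (SE 0.14, higher in 2 of 4 pairs).

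Of the 6 probes, limma called 0 at an adjusted p under 0.05, beside 0.0182% of all 16514 probes (2 higher and 1 lower). With a replicate block 0 were called beside 0.327% of all probes, and with a slide block 0 beside 0.0848%. Nothing is read from these counts, since the contrast chose the genes. In 0 of the 6 probes were the groups of 4 arrays separate, beside 1.01% of all probes. Within slide 3 the differences were -0.10 for Vegfa, -0.12 for Vegfb, -0.05 for Vegfc, 0.51 for Kdr, -0.08 for Flt1 and -0.0053 for Eng. Slides 1 and 2 hold 1 pair each, given above as pairs 1 and 2. Tek (chr4:94739086-94874976), Tie1 (chr4:118471191-118489849) and Pecam1 (chr11:106654213-106715281) allow no difference, since both groups were at background.

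**Figure D3:**
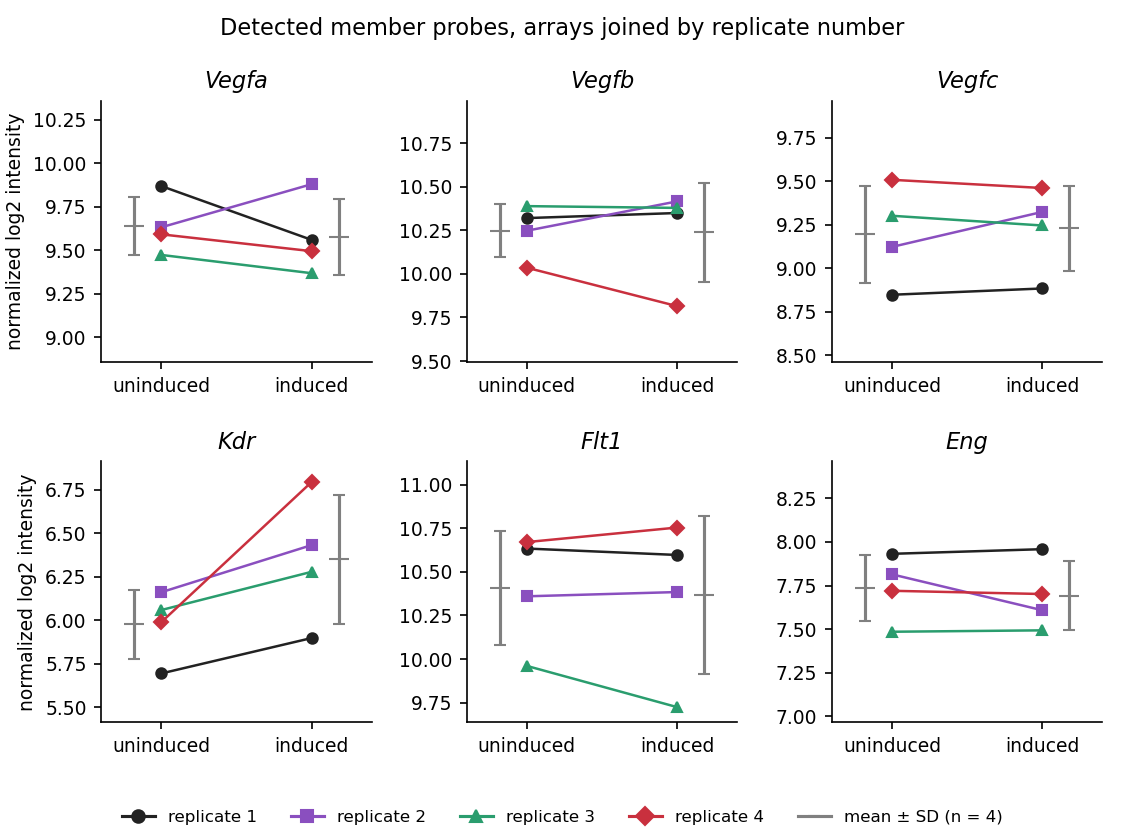
Normalized log2 intensity of the 6 detected probes in uninduced and induced cells, with arrays of the same replicate number joined and the mean ± SD of each group beside them. All panels span the same log2 range. Kdr is higher in all 4 pairs, from 0.20 to 0.81, and each of the other probes has pairs in both directions.

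Replicate numbers differed more than the groups did. This comparison is separate from induced against uninduced, and was not itself used to choose the genes. It does use the same array signals, which were known when they were chosen. Arrays of a number were averaged over both groups and tested with a limma F test over the 4 numbers, with the group as a covariate. Flt1, Vegfc, Vegfb, Eng and Kdr passed at an adjusted p under 0.05, which is 5 of 6 probes, while 43.3% of all probes passed. Replicate number and slide cannot be told apart for replicates 1 and 2.

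Flt1 had the widest spread of the 6, with replicate means of 10.62, 10.37, 9.84 and 10.71. The highest was 1.83-fold above the lowest (limma adjusted p = 1.26e-05). The median probe had a range of 0.37 between replicate means, against 0.87 for Flt1. The 2 arrays of a number lay close together, by -0.04, 0.02, -0.24 and 0.08, so each replicate's level was seen in both groups. Without replicate 3 the Flt1 range was 0.34 (limma adjusted p = 0.00907), and with slide in place of replicate number it was 0.34 and not called (adjusted p = 0.525).

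Vegfc had replicate means of 8.87, 9.22, 9.27 and 9.49, a 1.54-fold range (limma adjusted p = 0.000718). Vegfb held 10.34, 10.33, 10.38 and 9.93, with replicate 4 apart from the others (1.37-fold range, limma adjusted p = 0.00252). Without replicate 4 the Vegfb range fell to 0.05 on the log2 scale (limma adjusted p = 0.804; over all alternatives 0.000637 to 0.804).

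Eng ran 7.95, 7.71, 7.49 and 7.71 (limma adjusted p = 0.03), and Kdr 5.80, 6.30, 6.17 and 6.39 (limma adjusted p = 0.0442). Both lost the call without replicate 1 (adjusted p = 0.209 for Eng and 0.535 for Kdr), as did Vegfc (adjusted p = 0.0768). Eng lost it without replicate 3 too (adjusted p = 0.22) and Kdr without replicate 4 (adjusted p = 0.0525). Kdr was also not called without background correction (adjusted p = 0.0548), in the authors' matrix (0.0607), without a detection filter (0.0729) or without the variance trend (0.072), and Eng not without a detection filter (0.0738). Vegfa had means of 9.71, 9.76, 9.42 and 9.54 and missed the threshold (limma adjusted p = 0.0553), and passed in 6 alternatives with adjusted p from 0.0407 to 0.049. These were without replicate 1, 2 or 4, with detection on all 8 arrays, with a detection p under 0.01 and with the brightest probe per gene.

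Replicates 3 and 4 lay on the same slide, so their difference is not one between slides. The array labels on that slide end in B and C for replicate 3 and in E and F for replicate 4. Replicate number and place on the slide therefore cannot be told apart here. This comparison was added after the data were seen. For Flt1 and Vegfb, replicates 3 and 4 hold the lowest and highest means. Their differences restate the ranges of the F test and add no support of their own. Flt1 was higher in replicate 4 than in replicate 3 by 0.87 on the log2 scale (SE 0.083, 1.83-fold, limma adjusted p = 2.25e-05), by 0.71 in uninduced and 1.03 in induced cells. Its deposited intensities were 1852 and 1856 in replicate 4, against 1149 and 1057 in replicate 3. Vegfb was lower in replicate 4 by -0.46 (SE 0.088, limma adjusted p = 0.00719), by -0.35 in uninduced and -0.56 in induced cells.

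The Vegfb call was lost without the variance trend (adjusted p = 0.109), and Flt1 passed in all 5 alternatives (adjusted p from 2.29e-06 to 0.0148). Vegfa (0.12), Vegfc (0.21), Kdr (0.22) and Eng (0.22) were not called. Of all probes 5.17% passed, and 0.69% differed by as much as Flt1.

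**Figure D4:**
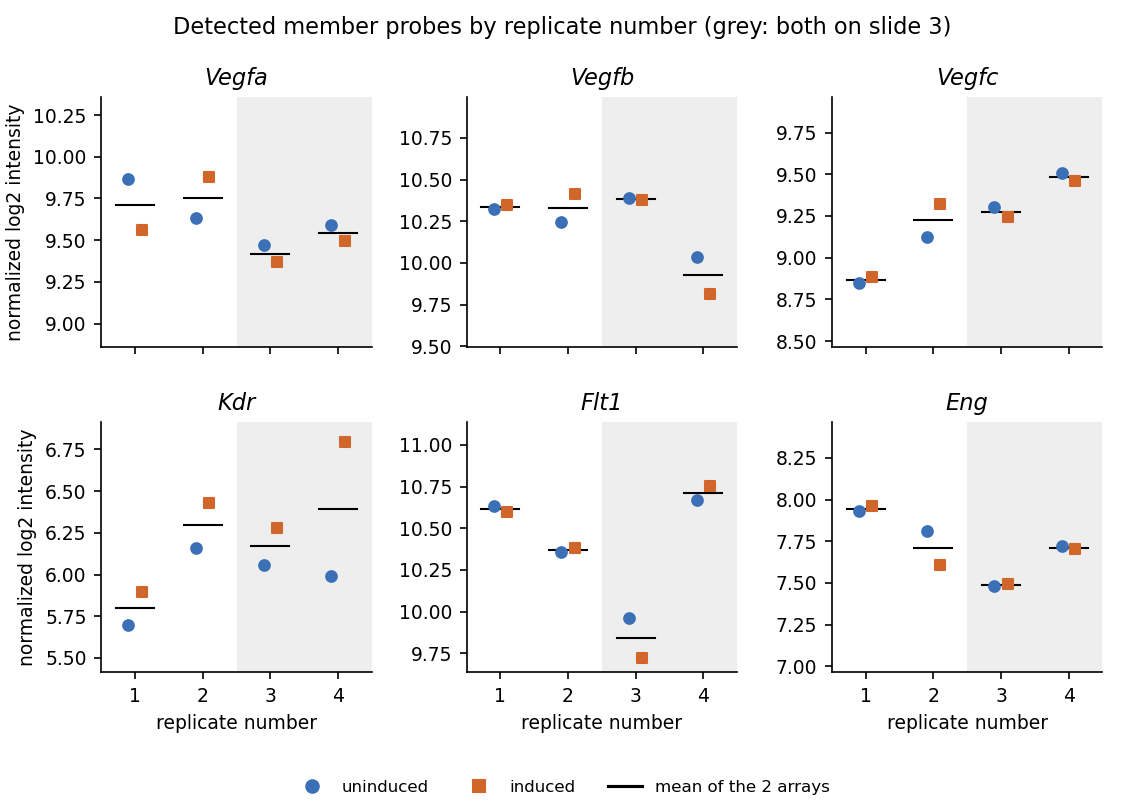
Normalized log2 intensity of the 6 detected probes by replicate number, circles for uninduced, squares for induced, bars for the mean of the 2 arrays, grey for slide 3. Flt1 is lowest in replicate 3 and highest in replicate 4 in both groups, and Vegfb is lowest in replicate 4.

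Markers of other cell types also moved between replicate numbers. The summed signal of the 10 macrophage markers kept, of 12 with a probe, was 666, 988, 1301 and 796 in replicates 1 to 4, highest where Flt1 was lowest. The macrophage sum ranged from 719 to 1262 in uninduced and 613 to 1339 in induced cells, and Ptprc was at background on all arrays. For the 4 endothelial markers kept of 22, the sums were 799, 819, 814 and 703, lowest where Flt1 was highest. The 6 mural markers kept of 11 gave 24287, 22583, 30853 and 29215, a sum that is mostly Acta2 (log2 means 14.41, 14.31, 14.81 and 14.72). Pdgfrb ran the other way, at 9.16, 9.14, 8.69 and 8.89, as did Notch3 at 6.50, 6.38, 5.84 and 5.96, and Cspg4 too was lowest in replicate 3, at 7.35. The 8 mesenchymal markers gave 17479, 15306, 15935 and 17549, with Col1a1 the brightest at 13.18, 12.69, 12.53 and 13.03. Pdgfra too was lowest in replicate 3, Shox2 was highest in replicate 2, and Barx1, Twist1, Osr2, Msx1 and Prrx1 were highest in replicate 3. Barx1 read 9.70, 9.91, 10.56 and 10.23 (limma adjusted p = 1.05e-05), and Twist1 9.92, 9.99, 10.34 and 10.28. The 3 epithelial markers kept of 7 gave 473, 600, 370 and 439, lowest where Flt1 was lowest, within 371 to 552 in uninduced and 370 to 648 in induced cells. Among these Krt18 differed between replicate numbers (limma adjusted p = 6.34e-05), at 8.72, 8.89, 8.04 and 8.54. Krt14 differed too (limma adjusted p = 0.000156) but was lowest in replicate 1, at 4.891, 6.398, 5.570 and 5.305. Krt8 was highest in replicate 3, at 6.12, 6.40, 6.74 and 6.23 (limma adjusted p = 0.129). Mural sums ranged from 22474 to 30942 in uninduced and 22693 to 30763 in induced cells, and mesenchymal sums from 14841 to 17364 and 15523 to 18124. The 3 platelet markers kept of 5 gave 363, 860, 425 and 964, in a range of 374 to 1046 in uninduced and 352 to 883 in induced cells. Of these only Ppbp moved as the sum did, at 6.86, 9.33, 7.25 and 9.62. Pf4 was highest in replicate 3, at 4.91, 5.02, 6.53 and 5.25, and Gp1bb fell from 8.05 in replicate 1 to 7.51 in replicate 4. Itga2b and Gp9 were at background on all arrays. The part of any of these in the Flt1 or Vegfb difference was not tested.

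The genes most like each detected member over the 8 arrays were picked for that likeness alone. Likeness was Pearson's r of normalized log2 intensity among 8341 genes detected on all arrays, and the 8 arrays form 4 pairs, so r is a description. Flt1 was closest to AU040320 (r = 0.97) and Slit2, a guidance ligand of Robo receptors (r = 0.966), whose replicate means were 10.78, 10.74, 10.04 and 10.91. Vegfa was closest to Tufm, a mitochondrial translation factor (r = 0.981), and Clmn (r = 0.959). Vegfb was closest to Erh (r = 0.97) and Dhcr7, an enzyme of cholesterol synthesis (r = 0.966). For Vegfc they were the replication factor Mcm10 (r = 0.97) and the interferon factor Irf9 (r = 0.963). For Kdr they were Plat, tissue plasminogen activator (r = 0.947), and Ctxn1 (r = 0.904), and for Eng the splicing factor Luc7l (r = 0.976) and Mxd1, a Myc antagonist (r = 0.964).

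Other genes of these pathways were taken in 7 lists of 124 genes together, of which 88 had a kept probe. Limma without a block called 0 of the 88 higher and 0 lower, and an unadjusted p under 0.05 was reached by 0 with a higher and 5 with a lower mean. With the replicate block 0 were higher and 5 lower, Egr1, Egr3, Tnfaip3, Adm and Spry4. Of all 16514 probes tested, an unadjusted p under 0.05 without a block was reached by 67 with a higher and 117 with a lower mean. With the replicate block 7 probes were called higher and 47 lower, which is 0.327% of all. The median difference was -0.0091 over the 88 genes and 0.0028 over all probes tested.

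None of the other VEGF ligands and receptors was called. Of 14 measured genes of that list, 6 had a higher and 8 a lower mean, with a median of -0.01, and 0 were called by limma with a replicate or slide block or without one. Vegfd (Figf), the other lymphatic ligand, differed by -0.08 (SE 0.15), and Pgf, a ligand of Flt1, by -0.09 (SE 0.17). Flt4, the receptor of Vegfc, read 206 to 241 on the deposited scale at its detected probe and differed by -0.02 (SE 0.15), while its other probes were detected on 1 array or 0. The neuropilins Nrp1 and Nrp2, co-receptors for VEGF and semaphorins, differed by -0.0089 (SE 0.098) and 0.09 (SE 0.18). The guidance ligands Sema3e and Sema3f had differences of -0.12 (SE 0.15) and 0.07 (SE 0.11).

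Among 7 angiopoietin and Tie partners the median was -0.06, with 0 called. Angpt2, which antagonizes Tek in many settings, differed by 0.13 (SE 0.18), and none of the 3 probes of Angpt1, the activating ligand, was above background. Angptl4, a lipase inhibitor, differed by -0.20 (SE 0.29), Dok2, an adaptor bound by Tek, by -0.10 (SE 0.14) and Angptl1 by 0.10 (SE 0.15).

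The 9 measured endoglin partners had a median of 0.10, with 6 higher, 3 lower and 0 called. Tgfbr3 (betaglycan), the other TGF-beta co-receptor, differed by 0.20 (SE 0.22), Bmpr2 by 0.16 (SE 0.15), Acvr2b by 0.10 (SE 0.12) and the BMP target Id3 by 0.10 (SE 0.12). Signaling partners of Kdr, 14 measured, had a median of 0.03 and 0 called. Nfatc1, a calcium-driven factor, differed by 0.24 (SE 0.14), Prkca by -0.18 (SE 0.12), Iqgap1 by -0.13 (SE 0.15) and Nck2 by 0.10 (SE 0.091).

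Of 13 genes that VEGF induces in endothelial cells, 2 had a higher and 11 a lower mean, with a median of -0.03. Without a block 0 were called and 3 had an unadjusted p under 0.05. Egr3 read 8.61, 8.92, 8.14 and 8.66 in uninduced cells. It read 7.94, 7.87, 7.48 and 7.53 in induced cells. The groups of this zinc finger factor did not overlap, and the difference was -0.88 (SE 0.17; limma adjusted p = 0.7 without a block and 0.00017 with the replicate block; over the 26 alternatives 6.96e-05 to 1). The dimmer of its probes, detected on 2 arrays of uninduced and all 4 of induced cells, differed by 0.26 (SE 0.15), and the mean of both probes by -0.31.

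Egr1, a related factor, fell by 0.62 on the log2 scale with the replicate block (limma adjusted p = 0.000421, over the 26 alternatives 8.29e-05 to 1; 0.186 without a block). Tnfaip3, an NF-kB inhibitor, fell by 0.52 with that block (limma adjusted p = 0.0119, the lowest over the alternatives; 0.121 with the slide block). With 1 pair left out under the replicate block, Tnfaip3 passed without replicate 1 (adjusted p = 0.0361) and not without replicate 2, 3 or 4 (0.0814, 0.0957 and 0.116). Plaur, the urokinase receptor, had -0.17 (SE 0.095) and was not called. These early genes are also targets of ERK signaling, and earlier results on these arrays had shown the fall of Egr1, Egr3, Tnfaip3 and Spry4, so it is no independent support.

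Of 20 hypoxia factors and targets, which often move with Vegfa, 9 had a higher and 11 a lower mean, with a median of -0.0067. Adm (adrenomedullin), a vasodilator peptide, read 9.37, 10.21, 10.01 and 10.32 in uninduced cells. It read 9.16, 9.49, 9.75 and 9.69 in induced cells. The groups overlapped, and all 4 pairs were lower. The difference was -0.45 (SE 0.2 without a block; limma adjusted p = 0.0232 with the replicate block and 0.265 with the slide block; over the alternatives 0.00877 to 1). Under the replicate block Adm was not called without replicate 2 (adjusted p = 0.228) or replicate 4 (0.191). The glycolytic enzyme Hk2 (-0.18), the carbonic anhydrase Car9 (-0.30) and the kinase Pdk1 (0.23) were not called. None of the 20 was called without a block, and 1 had an unadjusted p under 0.05.

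Of 12 angiogenesis inhibitors, 6 had a higher and 6 a lower mean, with a median of -0.00094. Spry4, a Sprouty inhibitor of receptor tyrosine kinase signaling, had a difference of -0.96 (SE 0.13; limma adjusted p = 0.0633 over 16514 probes). It passed with the replicate block (adjusted p = 4.51e-05), with the slide block (adjusted p = 0.00332) and where each of 9396 genes was represented by its brightest probe; over the 26 alternatives the adjusted p ran from 4.51e-05 to 1. The matrix protease inhibitor Timp3 (-0.13), Hgs (-0.32) and Vash2 (0.10) were not called.

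**Figure D5:**
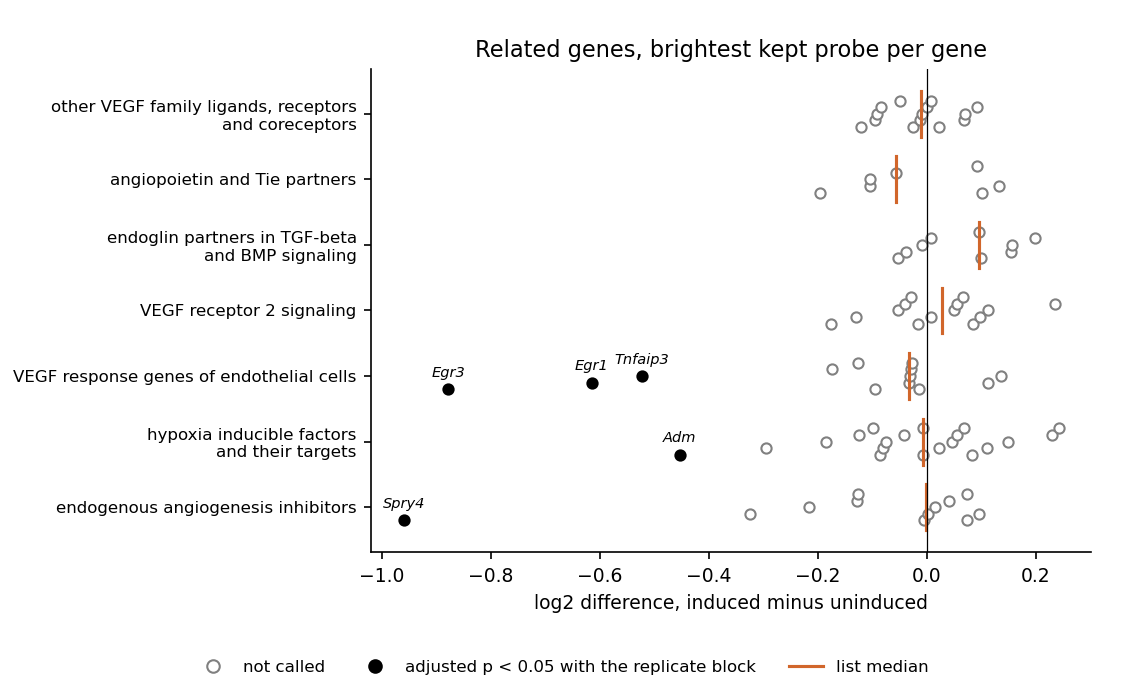
Log2 difference, induced minus uninduced, of the related genes in 7 lists, each gene by its brightest kept probe, with the list median as a vertical line. The filled points, called with the replicate block, are Egr3, Egr1, Tnfaip3, Adm and Spry4, all below 0, and the medians lie between -0.06 and 0.10.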

How the data were processed

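Total RNA was measured on single-channel Illumina mouse bead arrays, 4 per group. Per the file headers, the deposited values are average bead intensity per probe and array, without normalization between arrays, and a detection p-value. They were exported from GenomeStudio 1.6.0, per the submitters' processing notes. A processed matrix by the authors, also intensity on a linear scale, has a median of 4.4 on each array and served as an alternative.

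Background correction and quantile normalization were done by neqc (limma 3.58.1, R 4.3.3, offset 16) with 11 repeated probe identifiers averaged. The 16514 probes detected (p under 0.05) on 4 or more of the 8 arrays were fitted by limma with a variance trend, two-sided, with Benjamini-Hochberg adjustment over all of them. Between 15303 and 17362 probes were detected per array. Of 46632 probes, 29976 carried 1 gene symbol, 10 several and 16646 none. The replicate number was a block in an alternative. It pairs the arrays, since deviations of same-numbered arrays correlated at 0.607 to 0.729 across probes, above the limit of 0.1, and others at -0.576 to 0.38. Members and lists were chosen with earlier results of these data known. Named were all members, Vegfd, Pgf, Flt4, Nrp1, Nrp2, Angpt1 and Angpt2, up to 4 genes per list with the smallest p, called genes, and the 2 genes most like each member; the genes called with a block were among these. Lists were described by counts and medians. Fits were tested on simulated data. Gene positions are those of GRCm38.p6 in a RefSeq table, and the build behind the probes is not given in the sources used here.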

Additional observations from a re-analysis of the deposited data

Results flagged for a closer look

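Vegfb on induced replicate 4 stood far from the other induced arrays, at 9.82 against 10.35, 10.38 and 10.42. The gap to its nearest neighbour was 0.889 of the range of the group. Uninduced replicate 4 was the lowest of its group as well, at 10.04. Of 28 groups of 4 arrays examined in this way, for the detected members and the other VEGF and angiopoietin genes, 1 stood out, and chance marks about 1 group in 20.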

How the results depend on the processing

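The count of member probes called between induced and uninduced cells was 0 in every alternative run, with limma and no other tool. Without a block, all probes gave 2 higher and 1 lower. Median scaling gave 0 lower, the authors' matrix 2 lower, an offset of 50, a detection p under 0.01 and no variance trend 1 higher and 0 lower each, no detection filter 0 lower, detection on all 8 arrays 0 and 0, slides 1 and 2 alone 0 lower and slide 3 alone 0 and 0. The replicate block gave 7 higher and 47 lower, and the slide block 11 lower. By gene, the brightest probe gave 1 higher and 2 lower and the mean of probes 1 higher. Leaving out 1 array gave 1 to 2 higher and 0 to 1 lower, and leaving out 1 pair with the replicate block 3 to 10 higher and 19 to 30 lower (24 without replicate 1 and 20 without replicate 4). Related genes called lower rose from 0 to 5 with the replicate block (3 to 5 without 1 pair, 0 to 0 without 1 array), 3 with the slide block, and 1, Spry4, with the authors' matrix, the brightest probe or the mean of probes.

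Between replicate numbers, 5 member probes and 7148 probes were called. Median scaling gave 5 members and 10389 probes, and the fit without the variance trend 4 and 5023, so the share over all probes depends on the processing. With slide in place of the replicate number the counts were 1 (Vegfc) and 4682, with no detection filter 3 members, and with the brightest probe 4384 genes, where fewer features were tested. Without 1 replicate number 3 to 6 members and 5284 to 6092 probes passed. Replicate 4 against 3 gave 853 probes, 258 without the variance trend and 1609 on slide 3 alone. No value changed its call to the opposite direction. The cause of these shifts was not tested. Kdr, the dimmest detected member, was the one nearest to background.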

Other observations

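Several related genes also differed between replicates 3 and 4 on the same slide, in the comparison added after the data were seen. In that comparison 5.17% of all probes passed. Tgfbr3, the betaglycan co-receptor, was higher in replicate 4 by 0.70 on the log2 scale (limma adjusted p = 0.00511), Angpt2 by 0.53 (adjusted p = 0.0327) and Nrp2 by 0.37 (adjusted p = 0.0414). Each of these values rests on 1 probe. The other probes of Tgfbr3 and Nrp2 were detected on 0 arrays, and the other Angpt2 probe on 1. Nrp1 differed by probe: the probe ILMN_1247094, near background at 97.9 to 179.6, was higher by 1.11 (limma adjusted p = 0.0105), while the brightest Nrp1 probe gave 0.21 (adjusted p = 0.137). Among markers, Lyz2 of macrophages was lower in replicate 4 by -1.38 and Pf4 by -1.28, and Ppbp, a platelet chemokine, was higher by 2.37. The macrophage markers C1qb, C1qc and Laptm5 were also called lower, and the others kept, such as Adgre1, Fcer1g and C1qa, were not called. Mesenchymal and epithelial markers were called too, in both directions. Col1a1 (0.50), Krt18 (0.49) and Pdgfra (0.38) were higher in replicate 4, and Barx1 (-0.33) and Osr2 (-0.34) lower. Of the 4 endothelial markers kept, Emcn and Egfl7 were lower by -0.76 and -0.43 (limma adjusted p = 0.0182 and 0.018), while Cd34 differed by 0.06 (0.781) and Esam by -0.09 (0.873), neither called.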
